A study of Mus musculus with 2756 samples.

Results

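Sox4, Sox11 and Sox12 were followed in single cells of the embryonic mouse neocortex, as 3 of the 16441 genes in the deposited table of raw read counts. They were taken by name because together they make up the SoxC group of SRY-related HMG box transcription factors. For each gene the counts of the cells of an author cluster, an injection day and a collection time were summed and given as CPM (counts per M counts of the same cells), beside the share of cells with a count. Cells had been labelled in the embryo with FlashTag, a dye injected into the ventricle that is taken up by cells in division at its surface. The study asked how progenitors and their daughter neurons differ with birth date and with time since birth.

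SoxC proteins bind DNA through the HMG box and activate transcription through a domain near the C terminus. In the developing nervous system they are known for turning on neuronal genes as progenitors stop dividing, and Sox4 and Sox11 are known to act in part in each other's place. Sox12 is known as the weakest activator of the group in the mouse.

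Injection was on embryonic day 12 (E12), 13, 14 or 15 and collection 1, 24 or 96 h after it, which gave 12 conditions with 134 to 301 cells and 52.3 to 99.0 M reads each. The 2756 cells had a median of 4258 detected genes. Tissue was the putative primary somatosensory cortex. All groups shared the dye and a sort of the brightest 5% of cells before capture on a microfluidic circuit, so the values describe bright cells and not the whole cortex. No strain, genotype, animal or litter was named in the sources used here, so each condition counted as 1 sample. The spread behind the p-values is that between these conditions. Where injection day was a block, it is the spread of class or cluster differences between days. Either may be technical. Each of the 6 run codes in the cell titles held 1 collection time, so collection time and run cannot be told apart. The authors' 15 clusters were joined into 6 classes by the start of the cluster name. These were AP (apical progenitors), BP (basal progenitors), N1d and N4d (neurons mostly found 1 and 4 days after the dye), IN (interneurons) and Astro (astrocytes). The names were set beside marker genes. In AP cells at 1 h, 8 AP markers summed to 2439 to 6436 CPM. The same 8 summed to more in Astro cells at 96 h, 16436 to 17042 CPM. In IN cells at 96 h, 6 IN markers summed to 1536 to 2265 CPM. Of 7 Astro markers listed, 6 were in the table. These summed to 4519 to 8319 CPM in Astro cells at 96 h and to 248 to 958 CPM in AP cells at 1 h. Among them, Gfap and Aqp4 were under 1 CPM in AP, BP, N1d and IN cells but not in Astro cells. Which genes the clusters rest on is not given in the sources used here, so differences between clusters are not independent of the clustering.

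All 3 genes lie on the minus strand of the mouse genome (GRCm38, GENCODE vM21). Sox4 (ENSMUSG00000076431) is a gene of 1 exon at chr13:28948919-28953713, and Sox11 (ENSMUSG00000063632) is likewise a gene of 1 exon, at chr12:27334264-27342574. Sox12 (ENSMUSG00000051817) spans chr2:152393611-152398063. Their annotated exon lengths were 4795 bases for Sox4, 8311 for Sox11 and 4453 for Sox12. A long non-coding gene on the opposite strand, Gm26735, overlaps Sox4 by 2753 bases. The strand used in counting is not given in the sources used here, so reads of the shared stretch cannot be told apart. Gm26735 itself had at most 22.9 CPM in any class sum at its main time, where Sox4 had at least 392 CPM.

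The upstream regions are shown because Sox4 and Sox11 were both higher at 24 h than at 1 h and Sox12 passed no test between times. Whether any motif bears on these levels was not tested. Each line holds the 250 bases before the RefSeq start (GRCm38.p6, minus strand), Sox4 at chr13:28953700-28953949, Sox11 at chr12:27342719-27342968 and Sox12 at chr2:152398047-152398296. Capitals mark matches, on either strand, to the motifs named below.
Sox4: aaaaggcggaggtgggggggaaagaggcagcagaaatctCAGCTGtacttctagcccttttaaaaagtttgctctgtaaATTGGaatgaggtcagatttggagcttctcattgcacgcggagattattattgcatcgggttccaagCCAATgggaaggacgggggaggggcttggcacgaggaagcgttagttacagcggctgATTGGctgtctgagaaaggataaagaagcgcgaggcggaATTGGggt
Sox11: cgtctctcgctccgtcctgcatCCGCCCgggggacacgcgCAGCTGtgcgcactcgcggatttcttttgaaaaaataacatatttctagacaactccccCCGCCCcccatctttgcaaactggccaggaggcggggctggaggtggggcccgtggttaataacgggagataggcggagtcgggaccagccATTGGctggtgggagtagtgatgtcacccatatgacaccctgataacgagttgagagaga
Sox12: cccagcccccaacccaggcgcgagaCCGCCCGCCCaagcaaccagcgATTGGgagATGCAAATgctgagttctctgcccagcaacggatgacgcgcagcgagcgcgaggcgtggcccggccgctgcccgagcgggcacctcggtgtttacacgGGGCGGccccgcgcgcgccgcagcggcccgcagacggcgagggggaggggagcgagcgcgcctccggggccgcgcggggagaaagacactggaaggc
The motifs searched were the E-box CAGATG, a further E-box of sequence CAGCTG, another of sequence CACGTG, the POU octamer ATGCAAAT, the box CCAAT, the TATA box as TATAAA, the SOX core motif AACAAAG, its variant AACAATG, and the GC box GGGCGG. No motif holds another, but the first GC boxes of the Sox12 window overlap each other. The E-box CAGCTG stood at -211 in Sox4 and at -210 in Sox11, counted from the RefSeq start, and was not found in the Sox12 window. It occurs in 13.1% of the 32536 promoter windows in the same table. The octamer stood at -195 in Sox12, close to a CCAAT box in reverse at -203, and occurs in 1.62% of windows. CCAAT boxes numbered 4 in Sox4, 1 in Sox11 and 1 in Sox12 (33.8% of windows have one), and GC boxes numbered 2 in Sox11 and 3 in Sox12 (33.0% of windows). The other motifs searched were not in these windows. Base composition also differed: G and C made up 50.8% of the Sox4 window, 58.0% of the Sox11 window and 74.4% of the Sox12 window, against a median of 52.4% over all windows. The GENCODE transcripts of Sox4 and Sox12 begin slightly upstream of the RefSeq start, so the last bases of these windows lie inside them. That of Sox11 begins farther downstream, at chr12:27342574, whereas its window ends at chr12:27342719. The near-equal E-box positions of Sox4 and Sox11 therefore hold for the RefSeq starts only.

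Sox11 and Sox4 were both higher 24 h after labelling than at 1 h, and Sox12, at a far lower level, passed no test between times. These values are sums over the progenitor and excitatory neuron classes of a condition (AP, BP, N1d and N4d), called lineage sums here. Sox11 had 1507, 1232, 1467 and 2126 CPM at 1 h in the E12, E13, E14 and E15 conditions, 5803, 7749, 7338 and 5887 CPM at 24 h, and 6029.7, 4688, 4102 and 4443 CPM at 96 h. Every 24 h sum was above every 1 h sum, and the E12 sum at 96 h lay within the 24 h range. The means were 1583 ± 382, 6694 ± 995 and 4816 ± 844 CPM (SD, n = 4 conditions each) at 1, 24 and 96 h.

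Sox4 had 407, 449.7, 546 and 608 CPM at 1 h in the same order of days, 1021, 1307, 1391 and 1175 CPM at 24 h, and 1531, 1352, 1298 and 1515 CPM at 96 h. The 24 h and 1 h sums did not overlap, whereas the 96 h and 24 h sums did. Sox12 had 133, 86.0, 115 and 62.2 CPM at 1 h, 92.1, 149, 98.9 and 52.2 CPM at 24 h, and 121, 102, 125 and 90.5 CPM at 96 h. Its sums overlapped at all 3 times, and E15 held the lowest Sox12 sum of each time.

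**Figure D1:**
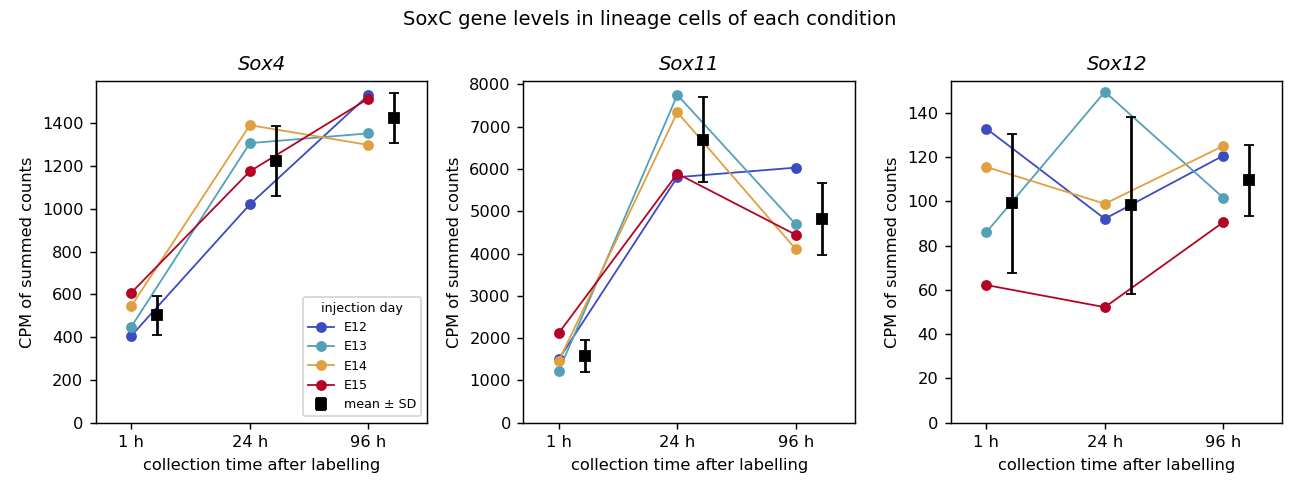
CPM of summed counts (y axis) of Sox4, Sox11 and Sox12 in the lineage cells of each condition at 1, 24 and 96 h (x axis), with 1 line per injection day and squares for the mean ± SD over 4 days. The 24 h sums of Sox4 and Sox11 lie above all 1 h sums, and the Sox12 sums overlap between times.

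In a fit across all 10210 genes tested (edgeR quasi-likelihood test, collection time with injection day as a number, Benjamini-Hochberg adjustment, threshold 0.05), 2 of the 3 members rose at 24 h against 1 h, where 19.2% of all genes passed and 11.4% were higher. The log2 difference was 2.06 ± 0.18 (SE) for Sox11 (adjusted p = 1.79e-05) and 1.27 ± 0.13 for Sox4 (adjusted p = 5.41e-05, both edgeR). Both were higher in 4 of 4 injection days. For Sox12 it was -0.04 ± 0.25 (edgeR, adjusted p = 0.939). The median over all genes was -0.003155. No member passed at 96 h against 24 h, where 24.2% of genes did. The log2 difference there was -0.43 ± 0.17 for Sox11 (adjusted p = 0.0848), 0.27 ± 0.13 for Sox4 (adjusted p = 0.157) and 0.24 ± 0.25 for Sox12 (adjusted p = 0.519, all edgeR).

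The classes in the lineage sums changed with time. AP cells made up 79.5% to 97.6% of lineage cells at 1 h, N1d cells 62.4% to 80.8% at 24 h and N4d cells 87.8% to 97.2% at 96 h. With the main class of each time only, Sox11 fell in N4d cells at 96 h against N1d cells at 24 h by 0.86 on the log2 scale (edgeR, adjusted p = 0.00178), and the sums of these classes did not overlap between the times. Leaving out E12 at 96 h, the sum that lay within the 24 h range, also brought Sox11 past the threshold (-0.57, adjusted p = 0.0393 by edgeR). The E15 condition at 1 h, which had the lowest share of AP cells, had the highest Sox11 sum of that time, and its AP cells alone had 1438 CPM. Without it the 96 h against 24 h difference of Sox11 was -0.44 (edgeR, adjusted p = 0.0378). Of the 12 fits with 1 condition left out, 10 did not pass (edgeR, adjusted p up to 0.216). Nor did 8 of the 9 alternatives that keep every condition (adjusted p up to 0.280).

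Sox11 and Sox4 changed unequally. Sox11 had 3.70, 2.74, 2.69 and 3.49 times the CPM of Sox4 at 1 h in E12 to E15, 5.69, 5.93, 5.28 and 5.01 times at 24 h, and 3.94, 3.47, 3.16 and 2.93 times at 96 h. The 24 h ratios lay above all ratios at the other times. On the log2 scale the ratio was 0.81 higher at 24 h than at 1 h (2.45 ± 0.11 against 1.64 ± 0.24, SD, n = 4, two-sided exact permutation p = 0.0286, adjusted over 6 tests 0.0429) and 0.70 lower at 96 h than at 24 h (-0.70, exact p = 0.0286, adjusted 0.0429). A p of 0.0286 is the smallest that the 70 splits of 4 against 4 can give. With 1 condition left out, the 24 h against 1 h ratio passed in 4 of 8 settings (adjusted p of 0.0343 to 0.0571, exact permutation) and the 96 h against 24 h ratio in 0 of 8 (adjusted p = 0.0571 in each). The exact permutation p of both stayed at 0.0286 in all of these settings. Their adjusted p changed only through the results of the other ratio tests. Sox12 relative to Sox11 was 2.15 log2 units lower at 24 h than at 1 h (-2.15) and 0.72 higher at 96 h than at 24 h, each with an exact permutation p of 0.0286 and an adjusted p of 0.0429, and with 1 condition left out these passed in 4 of 8 and in 0 of 8 settings. Relative to Sox4, Sox12 differed by -1.34 at 24 h against 1 h (exact permutation p = 0.0571, adjusted 0.0686) and by 0.02 at 96 h against 24 h (exact p = 1).

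**Figure D2:**
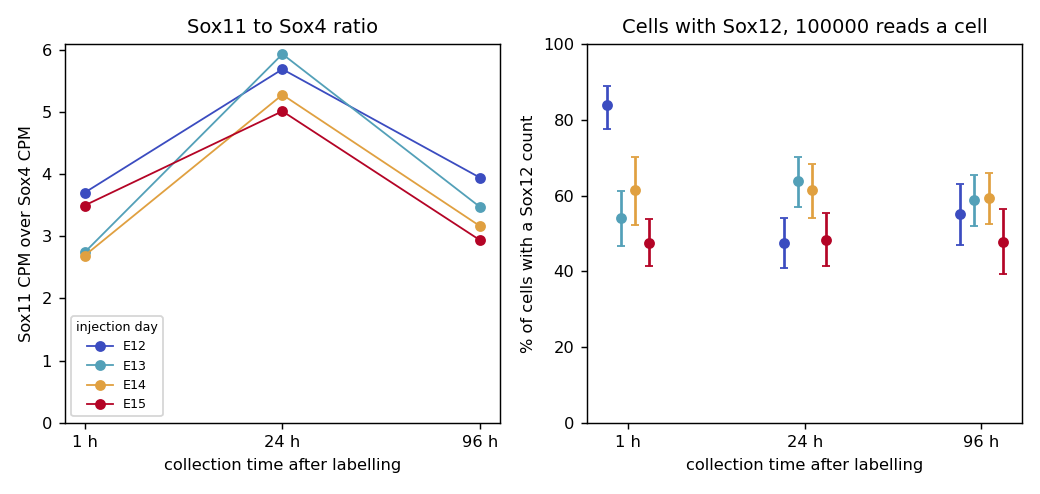
Left, CPM of Sox11 divided by CPM of Sox4 in the lineage sums (y axis) by collection time (x axis), 1 line per injection day. Right, percent of lineage cells with a Sox12 count after thinning to 100000 reads a cell (y axis) by collection time, with 95% Clopper-Pearson intervals. The ratio is highest at 24 h on every day (5.01 to 5.93), and the E12 condition at 1 h has the highest Sox12 share (83.8%).

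Per kb of exon, Sox11 stood above Sox4 and Sox4 above Sox12 at every time. The lineage means were 105, 255 and 297 CPM per kb for Sox4 at 1, 24 and 96 h, 190.5, 805 and 579 CPM per kb for Sox11, and 22.3, 22.0 and 24.6 CPM per kb for Sox12. These levels assume reads along the whole transcript. Coverage along transcripts was not analysed here.

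Within the 24 h cells, Sox4 and Sox11 were higher in BP than in AP cells, and Sox11 was higher again in N1d than in BP cells. AP cells are the dividing radial progenitors at the ventricle, and BP cells are the intermediate progenitors that they give rise to. Sox11 had 2219, 1649.6, 1807 and 1521 CPM in AP cells of E12 to E15, 3848, 4692, 3259.7 and 3624 CPM in BP cells, and 7375, 9775, 9264 and 8668 CPM in N1d cells. No sum of one class overlapped with a sum of the next. Sox4 had 583, 534, 608 and 452 CPM in AP cells, 905, 1373, 1262 and 1099 CPM in BP cells, and 1138, 1408, 1638 and 1528 CPM in N1d cells. The BP sums of Sox4 lay above all AP sums, and the N1d sums overlapped with the BP sums. Sox12 had 56.9, 96.4, 71.7 and 39.9 CPM in AP cells, 48.5, 138, 30.9 and 41.2 CPM in BP cells, and 122, 162, 111 and 61.6 CPM in N1d cells. Within each day the N1d sum of Sox12 was above both the AP and the BP sum, in 4 of 4 days, and N1d was not tested against AP cells. The BP sums of Sox12 spread widely, with E13 far above the other days, and the E14 sum came from 8 cells.

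In a fit with injection day as a block (9969 genes, edgeR), 2 of the 3 members were higher in BP than in AP cells, where 1% of genes passed and 0.672% were higher. The log2 difference was 1.12 ± 0.14 for Sox11 (adjusted p = 0.00584), 1.10 ± 0.14 for Sox4 (adjusted p = 0.00608) and -0.15 ± 0.34 for Sox12 (adjusted p = 0.913, all edgeR). Without E13 the Sox11 and Sox4 differences were 0.98 and 1.00 (adjusted p = 0.0621 and 0.0762), and without E15 they were 1.07 and 1.04 (adjusted p = 0.0891 for both, edgeR). In N1d against BP cells 1 member passed, Sox11, at 1.19 ± 0.14 (adjusted p = 0.00145), where 3.44% of genes passed and 1.14% were higher. Sox4 was at 0.30 ± 0.14 (adjusted p = 0.362) and Sox12 at 0.94 ± 0.34 (adjusted p = 0.199, both edgeR). AP marker genes fell in the same step, with 5 of 8 lower and 0 higher in N1d than in BP cells, and so did 4 of 6 BP markers.

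The ratio of Sox11 to Sox4 within each day bore on this step. It was 6.48, 6.94, 5.66 and 5.67 in N1d cells of E12 to E15, against 4.25, 3.42, 2.58 and 3.30 in BP cells. The N1d ratio was higher in 4 of 4 days, by 0.89 ± 0.24 on the log2 scale (SD, n = 4 days, exact sign-flip permutation p = 0.125, the smallest that 4 days allow). In BP against AP cells the log2 ratio differed by 0.02 ± 0.17, higher in 2 of 4 days (exact sign-flip permutation p = 1). Both comparisons were added after the class levels had been seen.

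**Figure D3:**
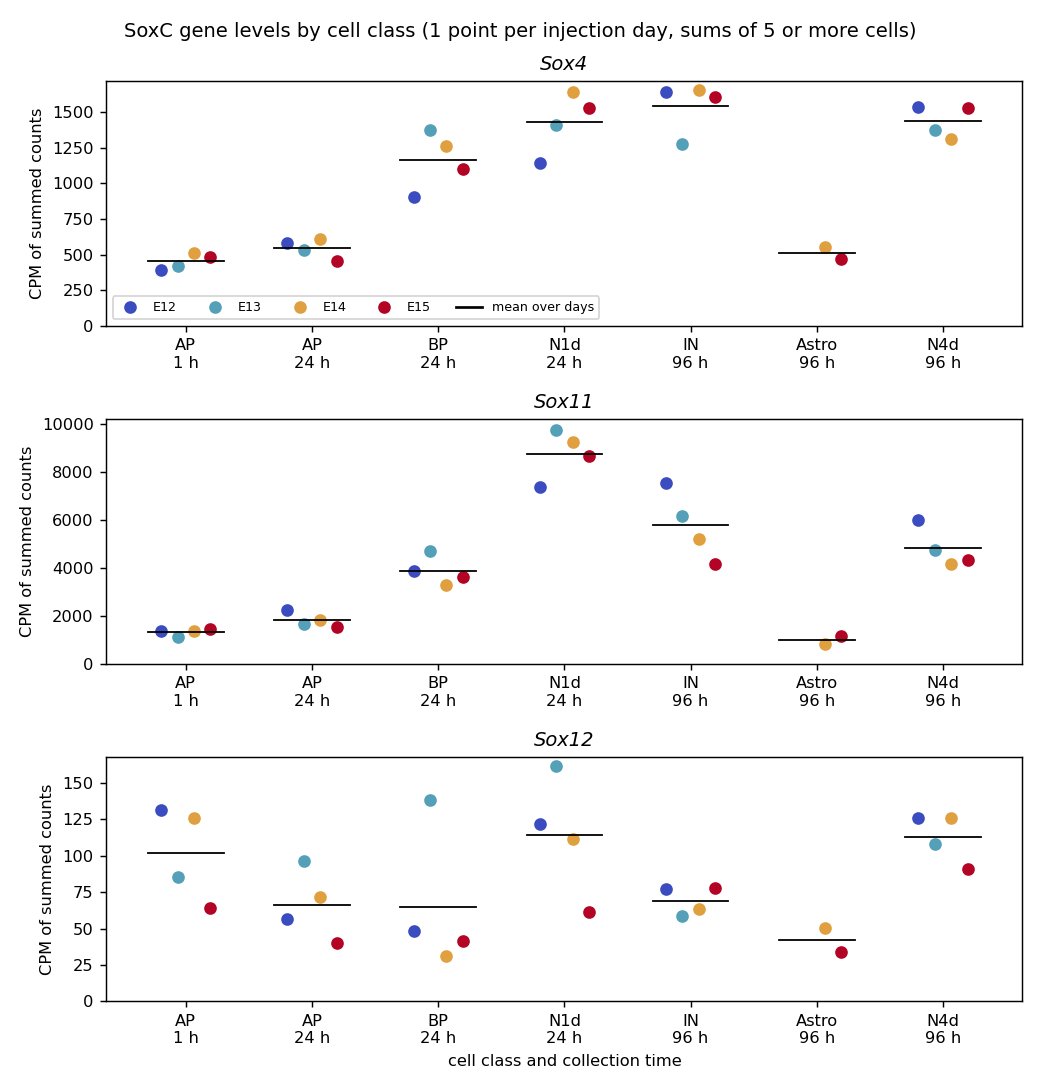
CPM of summed counts (y axis) of Sox4, Sox11 and Sox12 by cell class and collection time (x axis), 1 point per injection day with at least 5 cells and a bar for the mean over days. Sox11 is highest in N1d cells (7375 to 9775 CPM), the Sox4 sums of N1d, IN and N4d cells overlap, and Astro cells lie near AP cells for Sox4 and Sox11.

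A few cells of each class were found away from their main time, and in AP and N1d cells Sox11 lay nearer to the level of its class than to that of its time. Pooled over days, AP cells had 1309, 1700.5 and 1706 CPM of Sox11 at 1, 24 and 96 h, from 715, 112 and 16 cells. N1d cells had 7621, 8867 and 8852 CPM of Sox11 at the same times, from 17, 633 and 19 cells. For Sox4, AP cells had 447, 529 and 711 CPM and N1d cells had 1129, 1449 and 1746 CPM at the 3 times. The Sox4 level of N1d cells at 96 h was above both the N1d level at 24 h and the lineage sums of 96 h. These pools mix days in unequal shares and carry no test. BP cells at 1 h, 44 in all, had 1033 CPM of Sox4 and 3374 CPM of Sox11, between the AP and N1d values of that time for both genes.

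At 96 h, Sox4 and Sox11 were far lower in Astro cells than in N4d neurons, and no member passed between interneurons and N4d neurons. Astro cells reached the minimum of 5 cells per sum at E14 (7 cells) and E15 (54 cells) only. Sox11 had 805 and 1164 CPM in these Astro sums, against 6017, 4739, 4168 and 4323 CPM in N4d cells of E12 to E15. Sox4 had 556 and 471 CPM in Astro cells, against 1537, 1374, 1309 and 1530.5 CPM in N4d cells. Both Astro sums lay below all N4d sums for each gene. Sox12 had 50.04 and 33.99 CPM in Astro cells, against 126, 108, 126 and 90.6 CPM in N4d cells, likewise without overlap. In the fit at 96 h (9865 genes, edgeR with day as a block), 2 of 3 members fell in Astro against N4d cells, where 4.69% of genes passed and 2.6% were lower. The log2 difference was -1.95 ± 0.18 for Sox11 (adjusted p = 0.000744), -1.41 ± 0.19 for Sox4 (adjusted p = 0.00323) and -1.31 ± 0.50 for Sox12 (adjusted p = 0.189, all edgeR). The median over all genes in this contrast was -0.30.

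IN cells had 7538, 6149, 5215 and 4179 CPM of Sox11 at 96 h in E12 to E15. Their level was lower with each later injection day, and 3 of the 4 sums lay above the N4d sum of the same day. The log2 difference was 0.31 ± 0.13 for Sox11 (adjusted p = 0.594), 0.16 ± 0.13 for Sox4 (adjusted p = 0.985) and -0.63 ± 0.36 for Sox12 (adjusted p = 0.832, all edgeR), where 0.912% of genes passed. Sox4 had 1641, 1276, 1654 and 1605 CPM in IN cells. Sox12 had 76.9, 58.6, 63.1 and 77.6 CPM in IN cells, all below the N4d sums. IN markers summed to 1536 to 2265 CPM in IN cells and to 79.1 to 215 CPM in N4d cells.

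**Figure D4:**
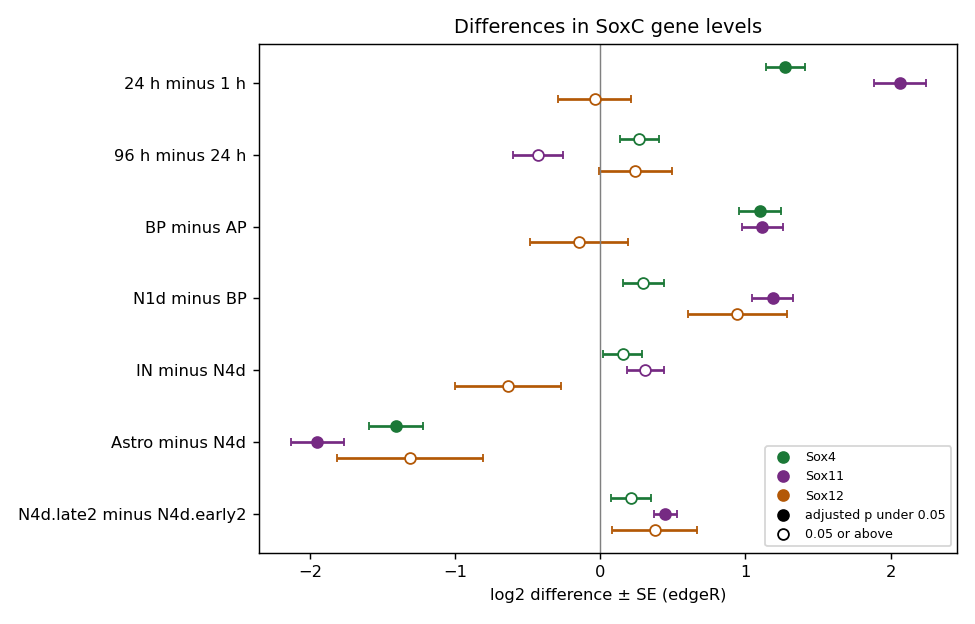
Log2 differences ± SE (x axis, edgeR) of Sox4, Sox11 and Sox12 in 7 comparisons (y axis). Filled points passed an adjusted p of 0.05. Sox11 passed in 5 comparisons, Sox4 in 3 and Sox12 in 0.

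Over all 15 clusters the order of levels differed between the genes. Means here run over the conditions in which a cluster had at least 10 cells. For Sox11 the N1d clusters came first, with 9386 ± 1669.8 CPM in N1d.late (SD, n = 4) and 8941 ± 1701 CPM in N1d.early (n = 3). They were followed by N4d.early1 (7199.9 CPM in 1 condition), IN.1 (7026 ± 1993 CPM, n = 5), N4d.late2 (6351 ± 1198 CPM, n = 4) and IN.2 (5309.7 ± 1161 CPM, n = 5). N4d.early2, BP.late, BP.early and N4d.late1 held 3651 to 4546 CPM. The 4 AP clusters held 1357 to 1528 CPM and Astro had 1164 CPM. Of 14 neighbouring pairs in this order, 11 overlapped in their condition values and so did not differ beyond their spread. The pairs apart were N1d.early above N4d.early1, BP.early above N4d.late1 and N4d.late1 above AP.late. Each of these pairs holds a cluster with 1 condition, N4d.early1 or N4d.late1, so no spread is known on that side.

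For Sox4 the highest mean was in N4d.early1, with 2153 CPM in the E12 condition at 96 h alone. N4d.late2 had 1641 ± 297 CPM (n = 4), N1d.late 1617 ± 81.1 CPM (n = 4), IN.1 1574 ± 263 CPM (n = 5) and IN.2 1408 ± 452 CPM (n = 5). N4d.early2, BP.late, N4d.late1 and N1d.early held 1231 to 1379.6 CPM. BP.early had 935 ± 150.2 CPM (n = 2), apart from N1d.early above it and from AP.late below it. AP.late (634 ± 138 CPM, n = 5), AP.mid1, Astro, AP.mid2 and AP.early made up the low end, down to 397 CPM. The clusters from N4d.late2 to N1d.early overlapped from neighbour to neighbour, and 11 of the 14 pairs overlapped in all.

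In the cluster means of Sox12, progenitor and neuron clusters were mixed. Its highest means were 138 CPM in N4d.late1, 134 CPM in N4d.early1 and 134 CPM in AP.early, each from 1 condition, and its lowest were 51.7 ± 28.3 CPM in BP.late (n = 4) and 33.99 CPM in Astro. Of 14 neighbouring pairs 12 overlapped. IN.1 spanned 0.368 to 79.8 CPM over 5 conditions, the low end being 1 read in the 11 cells of E15 at 96 h.

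**Figure D5:**
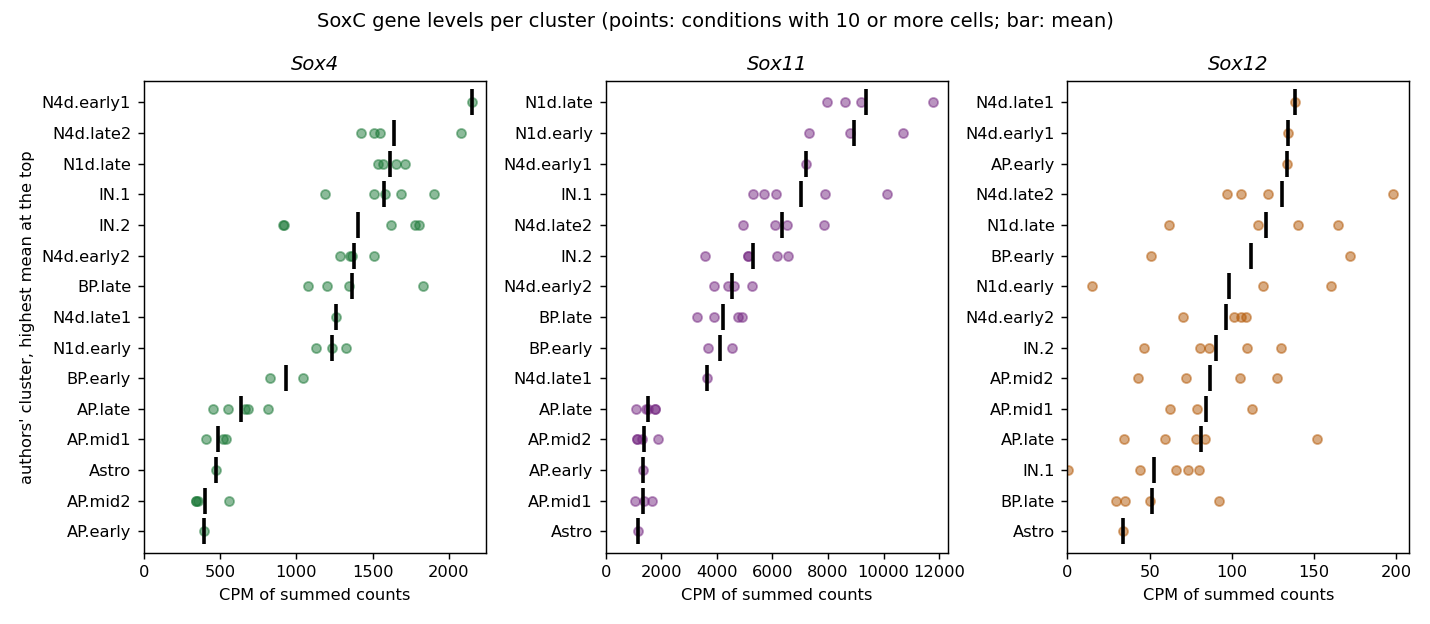
CPM of summed counts (x axis) of Sox4, Sox11 and Sox12 in the 15 author clusters (y axis, highest mean at the top), with 1 point per condition of at least 10 cells and a bar for the mean. The N1d clusters lead for Sox11, AP and Astro clusters are lowest for Sox4 and Sox11, and progenitor and neuron clusters are mixed for Sox12.

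Within N4d neurons Sox11 differed between clusters of the same day. It had 7849, 6518, 6087 and 4949.5 CPM in N4d.late2 at 96 h in E12 to E15, against 5278, 4386, 4625 and 3896 CPM in N4d.early2. N4d.late2 was higher in 4 of 4 days, although the ranges over days overlapped. The log2 difference was 0.45 ± 0.08 (edgeR, adjusted p = 0.0367), where 1.04% of 9230 genes passed and 0.466% were higher. This call rests on all 4 days: leaving out any 1 day gave 0.42 to 0.51 with adjusted p of 0.0844 to 0.172, and without the day block the adjusted p was 0.151 (edgeR). Sox4 and Sox12 were at 0.21 ± 0.14 and 0.38 ± 0.29 (adjusted p = 0.503 and 0.597, edgeR).

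Between the BP clusters, Sox4 had 1347, 1829 and 1203 CPM in BP.late of E12, E13 and E15, against 828.5, 1041 and 831 CPM in BP.early. Its BP.late sums were all above its BP.early sums. The log2 difference was 0.66 ± 0.14 (edgeR, adjusted p = 0.189, with 0.202% of 8415 genes called). DESeq2 gave 0.69 with an adjusted p of 0.00347, in a fit where it called 505 of the 8415 genes against 17 by edgeR. No member passed between IN.2 and IN.1, where 0.205% of genes did, or between N1d.late and N1d.early. In the N1d fit edgeR called 0 of 8308 genes (0%), against 220 at an unadjusted p under 0.05 and 31 by DESeq2.

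No member had a passing trend over injection days. The slope per embryonic day in AP cells at 1 h was 0.10 ± 0.08 log2 units for Sox4, 0.03 ± 0.07 for Sox11 and -0.26 ± 0.16 for Sox12 (edgeR, adjusted p = 0.781, 0.966 and 0.639), where 0.991% of 10195 genes passed. AP cells at 1 h had 392, 420.2, 511 and 482 CPM of Sox4, 1359.5, 1113, 1355 and 1438 CPM of Sox11, and 131.5, 85.5, 126 and 64.0 CPM of Sox12 in E12 to E15. The Sox12 values alternated between higher and lower days, and E12 and E14 shared a run code at 1 h, as did E13 and E15. In N1d cells at 24 h the slopes were 0.15 ± 0.08, 0.06 ± 0.08 and -0.35 ± 0.17 for Sox4, Sox11 and Sox12 (adjusted p = 0.438, 0.808 and 0.413, edgeR, with 0.383% of genes called). In N4d cells at 96 h they were -0.03 ± 0.07, -0.18 ± 0.08 and -0.14 ± 0.16 (adjusted p = 0.973, 0.589 and 0.904, edgeR, with 0.049% called). An F test of the difference between the 3 slopes gave adjusted p of 0.736, 0.577 and 0.908 (edgeR, with 0.216% called).

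Nearly every cell had Sox4 and Sox11 reads, and Sox12 reads were found in fewer cells. Cells were thinned to 100000 reads for this, which left out the 122 cells below that depth. Sox11 was in 99.9 ± 0.265% of lineage cells at 1 h and in 100% at 24 and 96 h, and Sox4 in 98.0 ± 1.21%, 99.5 ± 0.65% and 100% (SD, n = 4). Sox12 was in 61.7 ± 15.8%, 55.2 ± 8.59% and 55.3 ± 5.29% of cells at 1, 24 and 96 h, and without thinning in 73.7%, 68.5% and 68.6%. None of the 6 time comparisons of shares passed the two-sided exact permutation test (adjusted p of 0.686 or more). The Sox4 and Sox11 shares lie close to 100%, which leaves little room for a difference. With thinning to 50000 reads the Sox4 share was 3.13 percentage points higher at 24 h than at 1 h and 1.05 points higher at 96 h than at 24 h, and the Sox11 share was 1.58 points higher at 24 h than at 1 h. Each had the smallest p possible (exact permutation p = 0.0286) and an adjusted p of 0.0571. By day, Sox12 was in 83.8%, 54.0%, 61.5% and 47.5% of lineage cells at 1 h, 47.4%, 63.8%, 61.5% and 48.3% at 24 h, and 55.1%, 58.8%, 59.3% and 47.9% at 96 h. The E12 condition at 1 h had the highest of these shares and its interval (77.7% to 88.8%, 95% Clopper-Pearson, counting error only) overlapped with no other.

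Sox12 reads were also unevenly spread over cells. The tenth of lineage cells with the most Sox12 held 43.6% to 70.6% of its counts in each condition, against 20.9% to 39.3% for Sox4 and 19.0% to 37.7% for Sox11. The median lineage cell had 3.61 to 62.3 CPM of Sox12, below the summed value of its condition each time. Sox12 also had the fewest reads of the 3 genes, and the part of counting noise in this spread was not tested.

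In thinned cells all 3 genes were present together in 60.3% of 683 AP cells at 1 h, 48.6% of 111 AP cells at 24 h, 45.7% of 162 BP cells and 58.5% of 578 N1d cells at 24 h. At 96 h they were together in 38.9% of 185 IN cells, 36.5% of 63 Astro cells and 58.1% of 675 N4d cells. No thinned cell of these classes lacked all 3 genes; for the AP cells at 1 h, 0 of 683 allows a share of up to 0.539% (upper 95% Clopper-Pearson limit). Sox4 without Sox11 was seen in 1 AP cell at 1 h, and Sox11 without Sox4 in 13.

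The genes whose levels ran most like each member were more alike for Sox4 and Sox11 than for Sox12. Likeness was the Pearson correlation of log2(CPM + 1) over 25 class and condition sums of at least 20 cells, among 11378 genes. These sums share libraries, depth and the contrast between progenitors and neurons, so r is a description without a test. For Sox4 the leading genes were Elavl3 (r = 0.946), a neuronal RNA-binding protein, Mllt11 (0.942), Nedd4l (0.942), a ubiquitin ligase, Celsr3 (0.939), a cadherin of axon guidance, and Dcx (0.939), a microtubule protein of migrating neurons. For Sox11 they were Polb (0.942), a DNA repair polymerase, Tmsb10 (0.931), which binds actin monomers, Sox4 itself (0.929), Dbn1 (0.925), which binds actin filaments, and Cd24a (0.923), a surface glycoprotein. For Sox12 they were Ephb2 (0.795), an ephrin receptor, Ssbp3 (0.769), a cofactor of LIM-domain complexes, Ankrd10 (0.746), Morc2a (0.720), an ATPase of gene silencing, and Flrt3 (0.717), an adhesion protein of migrating neurons. Sox12 had r = 0.21 with Sox4 and 0.283 with Sox11.

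Genes reported elsewhere as SoxC targets in neural cells rose for the most part between 1 and 24 h, as Sox4 and Sox11 did. Of 9 such genes 6 rose and 1 fell at 24 h against 1 h, with a median log2 difference of 1.45 against -0.003155 over all genes. Of all genes, 19.2% passed in this comparison and 11.4% were higher. Tubb3, a neuronal tubulin, rose by 2.93 (adjusted p = 1.96e-05), and Dcx by 3.33, Neurod1, a neuronal differentiation factor, by 3.72, Reln, a secreted migration cue, by 3.88, Map2 by 1.45 and Stmn1 by 1.30 (all edgeR, adjusted p of 0.0186 or less). Reln was low throughout, with 2.89 ± 4.11 CPM in the lineage sums at 1 h and 18.7 ± 11.4 CPM at 24 h (SD). Tead2, a Hippo pathway factor high in progenitors, fell by 1.23 (adjusted p = 0.0177, edgeR). Eomes, the BP transcription factor, was at 1.18 and Fezf2, a factor of deep-layer neurons, at -0.32 (adjusted p = 0.112 and 0.705, edgeR). At 96 h against 24 h 3 rose and 4 fell (median -1.38, against -0.03 over all genes), where 24.2% of all genes passed. In BP against AP cells 2 rose, Eomes at 3.93 and Neurod1 at 2.50, where 1% of all genes passed and 0.672% were higher. In N1d against BP cells 3 rose and 2 fell, where 3.44% of all genes passed. In Astro against N4d cells 4 fell and 0 rose, where 4.69% of all genes passed and 2.6% were lower. In N4d.late2 against N4d.early2, where Sox11 rose, 0 of 8 tested rose and 2 fell, Tubb3 by 0.67 and Stmn1 by 0.49 (adjusted p = 0.0285 and 0.0323, edgeR). In BP.late against BP.early 1 of 8 tested rose, Eomes by 1.41 (adjusted p = 0.0405, edgeR), and 0 fell. Of all genes, 1.04% passed between the N4d clusters and 0.202% between the BP clusters. Several of the listed targets mark neurons in general, but not all do. Tead2 had 207 CPM in AP cells at 1 h and 10.1 CPM in N4d cells at 96 h. Eomes had 1102 CPM in BP cells at 24 h and 23.1 CPM in N4d cells at 96 h. Nothing here measures binding.

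Factors reported to act with SoxC proteins did not pass at 24 h against 1 h, but some passed in other comparisons. Of 5, 4 could be tested over time and 0 passed at 24 h against 1 h. Over injection days, 2 of the 4 tested rose in N1d cells at 24 h (edgeR slope), where 0.383% of all genes were called. E14 and E15 shared a run code at 24 h. With run code as a block this slope fit called 0 of 10195 genes, so neither call was kept. At 96 h against 24 h the POU factors Pou3f2 and Pou3f3 rose by 1.36 and 0.82 (adjusted p = 0.0228 and 0.0227, edgeR) and Neurog2, a proneural factor, fell by 2.35 (adjusted p = 0.000538, edgeR). In N1d against BP cells Neurog2 fell by 2.85 (adjusted p = 0.00737, edgeR), and in IN against N4d cells Pou3f2 and Pou3f3 fell by 1.40 and 1.20 (adjusted p = 0.0103 for both, edgeR). Of all genes, 19.2% passed at 24 h against 1 h and 24.2% at 96 h against 24 h. The share was 3.44% in N1d against BP cells and 0.912% in IN against N4d cells.

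The other Sox genes fell for the most part at 24 h, where Sox4 and Sox11 rose. Of 16 listed, 9 were in the table and 8 were tested over time. At 24 h against 1 h 6 fell (Sox1, Sox2, Sox3, Sox6, Sox9 and Sox21, with log2 differences of -2.79 to -1.28), and 1 rose, Sox5, a SoxD factor of deep-layer neurons, by 1.84 (adjusted p = 0.00104, edgeR). Their median was -1.78. These sums were mostly AP cells at 1 h and mostly N1d cells at 24 h. In AP cells alone, Sox1 had 93.1 ± 28.0 CPM at 1 h and 132 ± 89.4 CPM at 24 h (SD). Sox9 had 223 ± 39.1 and 290 ± 60.9 CPM. Sox2, Sox3, Sox6 and Sox21 had lower means at 24 h in AP cells too. Differences within AP cells were not tested. Sox1, Sox2 and Sox3 are the SoxB1 factors that keep neural progenitors undifferentiated. At 96 h against 24 h 5 fell and 0 rose, and in Astro against N4d cells 4 of the 6 tested rose, Sox9 by 4.59, Sox2 by 3.56, Sox6 by 2.93 and Sox1 by 2.19 (adjusted p of 0.0428 or less, edgeR). Of all genes, 19.2% passed at 24 h against 1 h, 24.2% at 96 h against 24 h and 4.69% in Astro against N4d cells.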

How the data were processed

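Per the labels' protocols, cDNA was made with a SMART-Seq v4 kit on a C1 microfluidic circuit, and libraries were made with Nextera XT and sequenced on a HiSeq2500. As deposited by the authors, the table gave unnormalized whole-number counts of reads for each gene in each cell. Column totals were 0.987 or more of the read number that the labels give each cell. The submitters' processing notes name GRCm38, TopHat2 2.0.13 and UMI-tools, with no role given. The counting tool, its strand setting and the filters on cells are not given in the sources used here. No doublet caller was run.

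Counts were summed per condition or per class and condition (at least 5 cells for class fits) and given as CPM. A cell had a median of 328909.5 reads (13191 to 1312820). Genes with at least 10 CPM in at least 3 sums were tested with edgeR 4.0.16 (quasi-likelihood, TMM) in R 4.3.3, with Benjamini-Hochberg adjustment over all genes tested and a threshold of 0.05. The code was checked on simulated counts. Ratios and thinned shares were compared by two-sided exact permutation tests over conditions in Python 3.11.15 with scipy 1.17.1. Intervals are 95% Clopper-Pearson and cover counting error only. The alternatives were DESeq2 1.42.0, its size factors, other filters, cell weights, cell sets, blocks and each condition or day left out. Genes named beside the members were the 5 with the highest correlation to each, passing over predicted, ribosomal and mitochondrial genes, and members of the gene lists. Members, lists and tests were chosen with earlier results of these data known. The result of 1 gene of these lists is not reported here.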

Additional observations from a re-analysis of the deposited data

Results flagged for a closer look

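Groups of 4 to 10 values of the 3 genes were checked for a single value far from the others, 48 groups in all, and 2 values of Sox4 stood apart. Chance flags about 1 in 20 such groups. In IN cells at 96 h, Sox4 had 1276 CPM in the E13 condition, below the 1605 to 1654 CPM of the other 3 days. In the cluster AP.mid2, Sox4 had 560.3 CPM in the E14 condition at 24 h, from 12 cells, above the 342 to 353 CPM of the other 3 conditions, all of which were collected at 1 h. No value of Sox11 or Sox12 was flagged, and no member had slopes over injection days that passed a test of their difference.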

How the results depend on the processing

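The labels give no replicate numbers, so the blocks used were injection days. Injection day as a factor changed no call of a member in the time fit. Sox11 and Sox4 kept their calls at 24 h against 1 h under all 9 alternatives and with any condition left out (1.93 to 2.24 and 1.17 to 1.32). So did Sox11 in N1d against BP cells (1.09 to 1.28) and both genes in Astro against N4d cells (-2.20 to -1.62 and -1.58 to -1.19) with any day left out. Without E14 or E15 the Astro arm is 1 sum, which is assumed to vary like the other classes. Elsewhere calls changed, and the cause was not tested. Sox11 at 96 h against 24 h passed with the main class only (-0.86). With 1 condition left out it ran between -0.57 and -0.35 and did not pass in 10 of 12 fits. With 1 day left out, BP against AP gave 0.98 to 1.23 for Sox11, 1.00 to 1.26 for Sox4 and -0.42 to 0.13 for Sox12. Sox11 in N4d.late2 against N4d.early2 did not pass with no low-count filter (0.38), without the day block (0.46) or with a day left out (0.42 to 0.51). Sox4 in BP.late against BP.early passed with DESeq2 (0.69).

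Differences that changed sign had passed in no setting. With equal weight per cell they were Sox12 at 24 h against 1 h (0.015), the Sox11 slope in AP cells (-0.0036), Sox11 and Sox4 in N1d.late against N1d.early (-0.14 and -0.11) and Sox12 in BP.late against BP.early (0.15). Others were Sox12 at 24 h against 1 h with the main class only (0.14), the Sox4 slope in N4d cells with run code as a block (0.047), Sox12 in BP against AP cells with at least 20 cells (0.092), Sox4 in IN.2 against IN.1 without the day block (0.0044), and the thinned Sox12 share at 96 h against 24 h with the main class only (-0.80 percentage points). With 1 condition or day left out, Sox12 at 24 h against 1 h ran between -0.28 and 0.10, and the slopes between -0.028 and 0.16 (Sox11, AP), -0.086 and 0.18 (Sox11, N1d), and -0.13 and 0.035 (Sox4, N4d). Sox4 in IN.2 against IN.1 ran between -0.20 and 0.19, Sox11 in N1d.late against N1d.early between -0.074 and 0.28, and Sox12 in BP.late against BP.early between -0.75 and 0.39. The Sox12 shares differed by -11.2 to 0.923 points at 24 h against 1 h and by -2.57 to 2.89 points at 96 h against 24 h.

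The log2 ratio of Sox11 to Sox4 ran between 0.73 and 0.89 at 24 h against 1 h and between -0.78 and -0.64 at 96 h against 24 h with 1 condition left out, and that of Sox12 to Sox11 between -2.51 and -1.94 and between 0.51 and 0.88. With 3 against 4 conditions, both ratios kept their call in 4 of 8 settings at 24 h against 1 h and in 0 of 8 at 96 h against 24 h. For Sox11 to Sox4 the exact permutation p stayed at 0.0286 in all of these settings, and its adjusted p changed with the other ratio tests. The ratio of Sox12 to Sox4 at 24 h against 1 h passed with the main class only (-1.51) and ran between -1.64 and -1.09, and at 96 h against 24 h between -0.24 and 0.22.

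The number of genes called moved with the tool and with the days used. For 24 h against 1 h it was 1959, with 949 to 3249 under the alternatives that keep every condition, and for 96 h against 24 h 2475, with 1140 (run codes as samples) to 2867. It was 100 for BP against AP cells (60 to 696), 343 for N1d against BP cells (221 to 1028), 463 for Astro against N4d cells (312 to 1661), 90 for IN against N4d cells (69 to 482) and 96 for the N4d clusters (63 to 955), the highest of each of these 5 ranges by DESeq2. With 1 day left out these 5 counts were 2 to 60, 71 to 188, 223 to 2277 (the highest without E15), 22 to 131 and 0 to 9. For the slopes it was 101 (33 to 343), 39 (0 to 386) and 5 (1 to 166) in AP, N1d and N4d cells, 22 for their difference (0 to 286), 17 for the BP clusters (1 to 505) and 18 for the IN clusters (14 to 359). With 1 condition or day left out these were 58 to 126, 0 to 54, 3 to 10, 14 to 32, 0 to 40 and 1 to 7, and the 2 time counts were 1414 to 1991 and 1661 to 2547. A minimum of 20 cells per sum was not run for the IN, N1d and BP clusters, where it left no residual degrees of freedom. Sox12, with the fewest reads, had SEs of 0.25 log2 units in the time fit and 0.34 to 0.50 in the class fits, against 0.13 to 0.19 for Sox4 and Sox11. The size of change that could be detected for Sox12 in particular was not tested.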

Other observations

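Interneuron-labelled cells were also found 1 h after labelling. In the E15 condition at 1 h, 33 such cells had 1198 CPM of Sox4, 6537 CPM of Sox11 and 112 CPM of Sox12. The AP cells of the same condition had 482 CPM of Sox4, 1438 CPM of Sox11 and 64.0 CPM of Sox12. Another 13 cells of that condition carried an N4d label and had 1222 CPM of Sox4 and 7155 CPM of Sox11. These cells entered no comparison of their own, and the values have no replicate.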
